A study of Mus musculus with 2 samples.

Results

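The proteasome is the large protease that degrades proteins marked with ubiquitin. Its barrel-shaped core particle is a stack of rings of alpha subunits (*Psma* genes), which gate the entrance, and beta subunits (*Psmb* genes), of which *Psmb5*, *Psmb6* and *Psmb7* carry the constitutive catalytic sites. The regulatory particle caps the barrel: its base unfolds substrates with the ATPases encoded by *Psmc* genes, and its lid removes ubiquitin chains. In dividing cells the proteasome clears cyclins and other regulators, and when its activity is short, the transcription factor NFE2L1 (NRF1) is known to drive transcription of most subunit genes through antioxidant response elements.

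The constitutive proteasome genes described here are those whose array name begins with *Psma*, *Psmb*, *Psmc*, *Psmd*, *Psme*, *Psmf* or *Psmg* and a number, without the immunoproteasome subunits *Psmb8*, *Psmb9* and *Psmb10*. There were 46 such genes among the 27790 genes on the arrays, and the rule used no measured difference. They were read from 75 probes, 1 for each of 24 genes and several for the other 22, and each gene was represented by its brightest probe. By role, 14 belong to the core particle and 17 to the regulatory particle. The other members are activators, an inhibitor, assembly chaperones, and 3 genes of special tissues or of similar name. Detection required a signal well above background on each array in at least one and the same line. This held for 44 of the 46 members and 12546 of all genes. The members not detected were *Psma8*, the alpha subunit of the testis, and *Psmb11*, the beta subunit of the thymus.

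RNA of a pair of mouse melanoma lines was compared on 2 two-colour Agilent arrays on 1 slide with exchanged dyes. Both lines are B16F1 cells that carry a GFP vector selected with geneticin, and both were untreated and grown in the same medium. B16F1-GFP-M is the maternal line. B16F1-GFP-D descends from 1 colony of GFP+ disseminated melanoma cells, sorted from pooled organs of tumour-free control and immunised mice 1 year after challenge, so that it stands for a single clone. The Cy5 dye marked B16F1-GFP-M on array 1 and B16F1-GFP-D on array 2. The labels name no separate cultures or extracts, so the arrays were taken as technical repeats and counted as 1 replicate per line. No test between the lines was therefore made. Every spread written after ± below is between arrays, and clone and condition cannot be told apart. A rule of size stood in for a test: at least 2-fold, or 1 on the log2 scale, with the same sign on both arrays. All ratios are on the log2 scale and compare B16F1-GFP-D with B16F1-GFP-M, so that a value above 0 is higher in B16F1-GFP-D. Over all detected genes the median ratio was -0.01, the arrays had a Pearson correlation of 0.927 across genes, which are not independent replicates, and the pooled standard deviation (SD) between arrays was 0.15. All 8 melanocyte markers of a fixed list were detected, with a median ratio of -0.14 (-0.34 and 0.03 on the arrays); 3 were higher on both arrays and 4 lower, the lowest being *Mitf* with -0.95 and -0.89 and *Dct* with -1.10 and -0.47. Of 7 fibroblast and 7 leukocyte markers 2 each were detected. These were *Col1a1* (0.38 and 0.41), *Col1a2* (-0.33 and -0.33), *Cd68* (0.51 and 0.36) and *Cd3e* (-0.06 and 0.05). They were dim, with median log2 intensities of 6.77 (fibroblast) and 6.56 (leukocyte), against 9.14 over all detected genes. None of 5 endothelial and 5 epithelial markers was detected, and *Ptprc*, *Pecam1* and *Epcam* were among those not detected.

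Most proteasome genes were somewhat higher in B16F1-GFP-D. Of the 44 detected members, 29 were higher on both arrays, 9 were lower on both and 6 differed in sign between the arrays. The shares were 65.9% and 20.5% of the members, against 41.0% higher and 42.8% lower over all detected genes. The median ratio of the members was 0.28 (0.30 on array 1 and 0.23 on array 2), or 1.22-fold, against -0.01 over all detected genes. Upwards, 1 of the 44, *Psmb7*, passed the 2-fold rule, where 3.08% of all detected genes did. None passed it downwards, where 1.94% did. Median centring in place of loess left all detected genes at medians of -0.86 and 1.02 on the arrays. *Psmb7* then missed the rule on array 1 (0.73 and 2.60) and 1 member was higher on both arrays. The share of all detected genes higher on both is not given for median centring, so this count does not describe the members in particular. The core medians were -0.71 and 1.80 under this setting, each above that of all detected genes. Leaving out array 1 brought *Psma4* past 2-fold as well. At 1.5-fold on both arrays 6 of the 44 were higher, *Psma4*, *Psmb7*, *Psmc3*, *Psmd6*, *Psmd13* and *Psmc3ip*, and none was lower. Over all detected genes the shares were 8.77% and 7.01%.

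**Figure D1:**
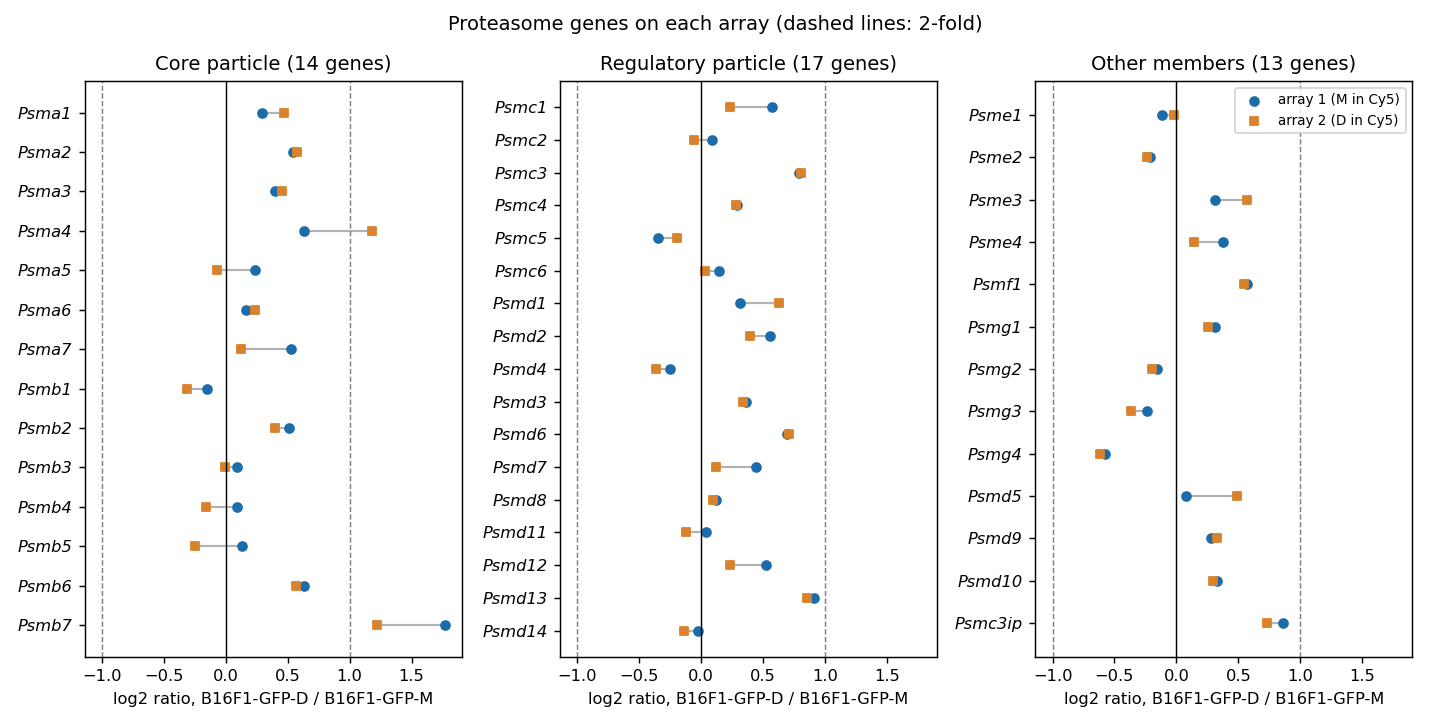
Ratio (horizontal axis, log2 of D divided by M) of the 44 detected members on array 1 (circles) and array 2 (squares), with core particle, regulatory particle and other members in separate panels and dashed lines at 2-fold. *Psmb7* lies beyond 2-fold on both arrays, and 29 genes have both symbols above 0.

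The catalytic subunits did not differ alike between the lines. *Psmb7* encodes the trypsin-like subunit. Its probe had a normalised log2 intensity of 11.87 in B16F1-GFP-D and 10.10 in B16F1-GFP-M on array 1, and of 11.90 and 10.68 on array 2. The line B16F1-GFP-D was the brighter one on both, and the gap was wider on array 1. The ratios were 1.77 and 1.22, with a mean of 1.49 ± 0.39 (SD of 2 arrays), or 2.82-fold. Ordered by increase, *Psmb7* had rank 122 among the 12546 detected genes. *Psmb6*, the caspase-like subunit, had intensities of 13.89 in B16F1-GFP-D and 13.25 in B16F1-GFP-M on array 1, and of 13.67 and 13.10 on array 2. B16F1-GFP-D was again the brighter line on both, with ratios of 0.63 and 0.57 and a mean of 0.60 ± 0.05, or 1.52-fold. *Psmb5*, the chymotrypsin-like subunit, had intensities of 13.30 in B16F1-GFP-D and 13.18 in B16F1-GFP-M on array 1, and of 12.99 and 13.24 on array 2. The order of the lines thus turned between the arrays, with ratios of 0.13 and -0.25, and the mean of -0.06 ± 0.27 was within the spread between them.

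**Figure D2:**
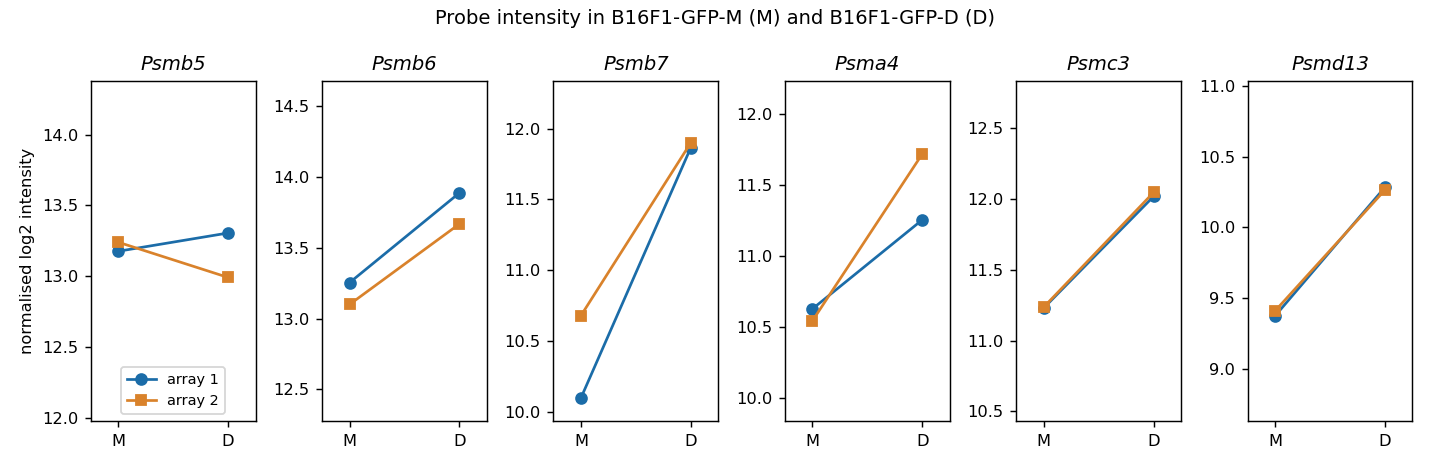
Normalised log2 intensity (vertical axis, 1 scale per gene, each spanning the same range) of 6 members in B16F1-GFP-M (M) and B16F1-GFP-D (D) on array 1 (circles) and array 2 (squares). The lines run upwards on both arrays for every gene except *Psmb5*, whose arrays cross, and *Psmb7* has the steepest.

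*Psmb7* had a single probe, so its value could not be set against another one. To show what was measured, the first 30 of the 60 bases of this probe are printed, with those of both *Psma4* probes, which repeat each other, as in the array files and with no base marked. The positions are on mm9. That of *Psmb7* is chr2:38468966-38489385 on the minus strand, and it spans 20420 bases, more than the probe is long. The *Psma4* probes lie at chr9:54802741-54804087 and chr9:54802491-54802690 on the plus strand.
Psmb7, A_51_P468329: cttatgtcaccatgggttctggctccttgg
Psma4, A_52_P81468: tgtgtgatatcaaacaggcgtacacacagt
Psma4, A_51_P106227: aggcataacatctgatgctaacgttctgac

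Among the alpha subunits, 6 of 7 were higher on both arrays and none was lower on both, with a class median of 0.38. *Psma4* had the highest ratio of the class, 0.63 on array 1 and 1.18 on array 2, with a mean of 0.90 ± 0.39. It passed 2-fold on array 2 only. Its second, dimmer probe gave a mean of 1.01. *Psma2* followed with ratios of 0.54 and 0.57. *Psma3*, *Psma1* and *Psma7* had means of 0.43, 0.38 and 0.33, and *Psma6* had 0.20. The lowest was *Psma5*, whose sign differed between the arrays, with 0.24 and -0.07. The alpha ring was thus higher throughout except for *Psma5*, by 1.15-fold (*Psma6*) to 1.87-fold (*Psma4*).

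The beta subunits were spread more widely, with a median of 0.04 and an SD over genes of 0.60, against 0.27 for the alpha subunits. Most of this spread came from *Psmb7*, since the SD was 0.32 over the other 6. Only *Psmb7*, *Psmb6* and *Psmb2* were higher on both arrays. *Psmb2*, a subunit with no catalytic site, had ratios of 0.51 and 0.40. *Psmb1*, also without one, was the lowest of the class and the only core subunit lower on both arrays, with -0.15 and -0.31. *Psmb3* and *Psmb4* differed in sign between the arrays, with 0.09 and -0.01 for *Psmb3* and 0.09 and -0.16 for *Psmb4*. A second *Psmb3* probe was higher on both arrays, with 0.50 and 0.26. The core particle therefore held both the largest increase of the members and several genes whose difference was smaller than the spread between the arrays.

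In the regulatory particle, 12 of 17 genes were higher on both arrays, 3 were lower on both and 2 were mixed. Of the base ATPases, which form the ring that threads substrates into the core, *Psmc3* had the highest ratio, 0.79 and 0.81 with a mean of 0.80 ± 0.02. Its intensities were 12.02 in B16F1-GFP-D and 11.23 in B16F1-GFP-M on array 1, and 12.05 and 11.24 on array 2, so that the arrays repeated each other closely. *Psmc1* (mean 0.40), *Psmc4* (0.29) and *Psmc6* (0.09) were also higher on both arrays. *Psmc2* was mixed, with 0.09 and -0.06. *Psmc5* was lower on both, with -0.35 and -0.19, but its second probe was higher on both, with 0.16 and 0.20, so that its direction depended on the probe.

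The remaining base subunits, which hold the ring to the lid and bind ubiquitin, gave 0.31 and 0.63 for *Psmd1* and 0.56 and 0.40 for *Psmd2*, the scaffold subunits. *Psmd4*, a ubiquitin receptor, went the other way, with -0.25 and -0.36 and a mean of -0.31 ± 0.08, the lowest of the regulatory particle. Its second, much dimmer probe gave a mean of 0.00. In the lid, 6 of 8 genes were higher on both arrays. *Psmd13* had the highest ratio, 0.91 and 0.85 with a mean of 0.88 ± 0.04. Its intensities were 10.28 in B16F1-GFP-D and 9.38 in B16F1-GFP-M on array 1, and 10.26 and 9.41 on array 2. *Psmd6* followed with 0.70 and 0.71. *Psmd12*, *Psmd3*, *Psmd7* and *Psmd8* had means of 0.38, 0.35, 0.28 and 0.11. *Psmd14*, the deubiquitinase of the lid, had the lowest ratio, -0.03 and -0.13, while its second detected probe gave 0.09 and 0.23. *Psmd11* was mixed, with 0.04 and -0.12.

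The core and the regulatory particle had similar median ratios. The median ratio was 0.35 for the 14 core genes (0.34 and 0.31 on the arrays, 1.28-fold) and 0.29 for the 17 regulatory genes (0.31 and 0.23, 1.22-fold). The difference of the medians was 0.07, with an SD of 0.036 between its values of 0.03 and 0.08 on the single arrays. It was small beside the SD over genes, which was 0.45 in the core and 0.35 in the regulatory particle. The sign depended on the choice of probes: the difference turned to -0.020 when each gene was read as the median of its probes. That median included probes that were not detected. With detected probes only, a setting added after seeing the data, the difference was 0.026. Without *Psmb7* the core median was 0.33. Within each particle the genes ranged much more widely, from -0.23 to 1.49 in the core and from -0.31 to 0.88 in the regulatory particle.

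**Figure D3:**
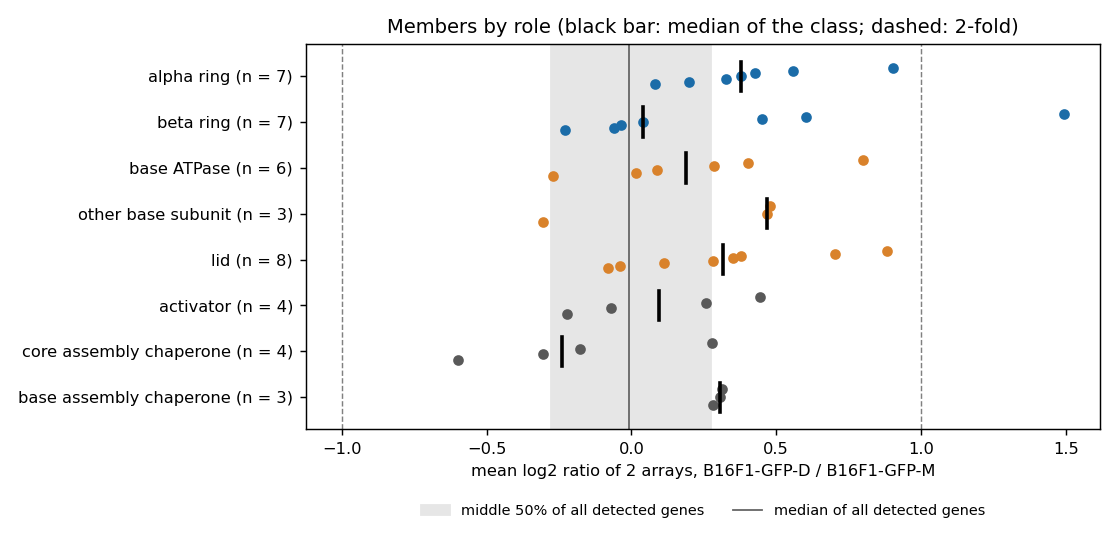
Mean log2 ratio of the 2 arrays (horizontal axis) of each detected member in the 8 role classes with 3 or more detected genes, with core genes in blue, regulatory genes in orange and others in grey. Black bars mark class medians, from -0.24 in the core assembly chaperones to 0.47 in the other base subunits, and the grey band holds the middle 50% of all detected genes.

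Outside the particles, the assembly chaperones numbered 7, of which 4 lay higher on both arrays and 3 lay lower. *Psmg1* to *Psmg4* encode chaperones that work in pairs on the alpha ring of the core. *Psmg1* was higher on both arrays, with 0.31 and 0.25, whereas *Psmg2*, *Psmg3* and *Psmg4* were lower on both. *Psmg4* had the lowest ratio of all members, -0.58 and -0.62 with a mean of -0.60 ± 0.03. Its intensities were 9.47 in B16F1-GFP-D and 10.05 in B16F1-GFP-M on array 1, and 9.28 and 9.90 on array 2. *Psmg3* had -0.24 and -0.37, and *Psmg2* had -0.16 and -0.20, with a second probe of mixed sign (-0.14 and 0.31). The chaperones of the base were higher on both arrays in 3 of 3 cases, with means of 0.28 for *Psmd5*, 0.30 for *Psmd9* and 0.31 for *Psmd10*. The arrays of *Psmd5* were farther apart than those of the others, with 0.07 and 0.49.

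Of the activators, which open the gate of the core in place of the regulatory particle, *Psme1* and *Psme2* form the interferon-inducible ring and *Psme3* a nuclear one. *Psme1* had -0.12 and -0.02 and *Psme2* had -0.21 and -0.24, both lower on both arrays. *Psme3* had 0.31 and 0.57 and *Psme4*, whose product is also called PA200, had 0.38 and 0.14, both higher on both. *Psmc3ip*, which is no proteasome subunit and acts in meiotic recombination, had 0.86 and 0.73. It matched the name pattern and is counted among the 44 detected members and the 29 higher on both arrays.

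The inhibitor gene *Psmf1*, which encodes PI31, had no settled direction. Its 3 probes were all detected. The brightest gave 0.57 and 0.55, a second of nearly the same brightness gave -0.36 and -0.30, and the dimmest gave -0.30 and -0.40. On mm9 the brightest lies at chr2:151555353-151555412 and the others at chr2:151542820-151542879 and chr2:151541996-151542055, all on the minus strand, 12.5 and 13.4 kb from it. The choice of the brightest probe thus set the sign, and the first 30 of 60 bases of each probe are printed in that order.
Psmf1, A_52_P66313: gacctataagaacagtgaggagcttcggtc
Psmf1, A_52_P271555: taggtttgggaatgtagataacttggaccc
Psmf1, A_51_P274593: tttgttattttgcgtgggcagtttttaagt

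Probes could be compared in 18 members with more than 1 detected probe. In 13 of them the mean ratio had 1 sign over all detected probes. In the other 5, *Psmc5*, *Psmd14*, *Psmd4*, *Psmf1* and *Psmg2*, it had both signs. The range between the probes of a gene had a median of 0.25.

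**Figure D4:**
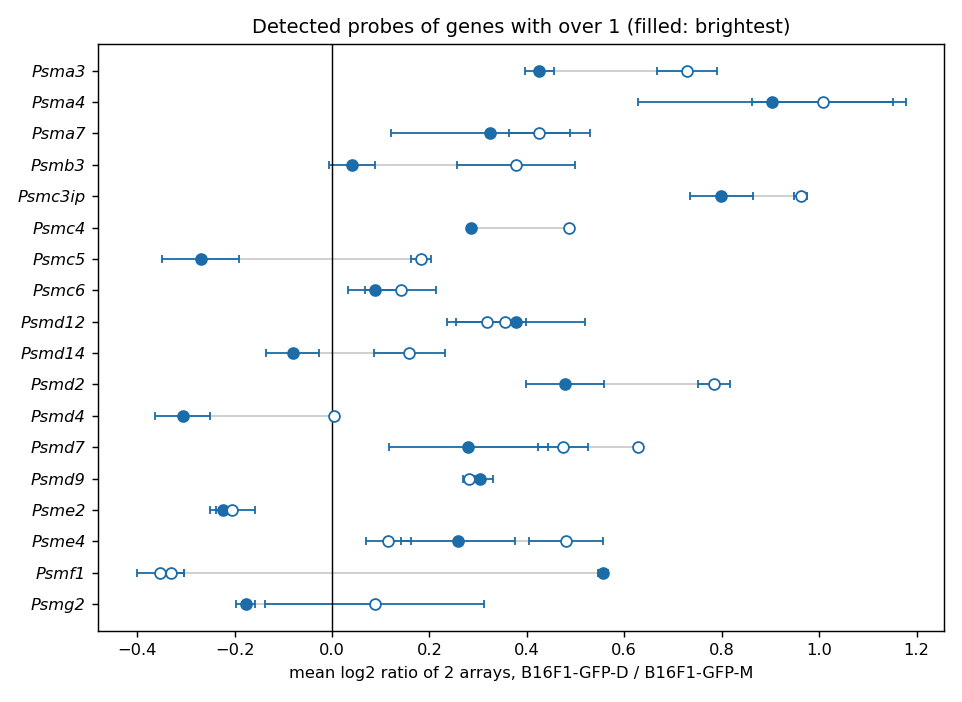
Mean log2 ratio (horizontal axis) of each detected probe of the 18 members with more than 1, with bars reaching from one array to the other and the brightest probe filled. The probes of 13 genes lie on one side of 0, and those of *Psmf1* are farthest apart, from -0.35 to 0.56.

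By chromosome, 6 detected members lie on chromosomes 3, 13 and 17. These were *Psma5*, *Psmb4*, *Psmd4*, *Psma2*, *Psmg4* and *Psmb1*, and their median ratio was -0.13, with only *Psma2* among them higher on both arrays. All detected genes had medians of -0.15 on chromosome 3, -0.16 on chromosome 13 and -0.17 on chromosome 17. Of the 38 members on other chromosomes 28 were higher on both arrays, with a median of 0.31. Among these, the 5 on chromosome 14 had a median of -0.06 and the 3 on chromosome 5 of 0.02. *Psmg2*, the only one detected on chromosome 18, had -0.18. Medians of all detected genes are not given here for chromosomes 5, 14 and 18, and a cause was not tested. Chromosomes 3, 13 and 17 were singled out with earlier results of the same arrays known, and copy number was not measured.

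Around the particle, a list of 35 further genes of the pathway was read, of which 34 were detected. Their median ratio was -0.0013, with 13 higher on both arrays and 12 lower. Past 2-fold on both arrays were 1 gene upwards and 1 downwards. *Nfe2l1*, the transcription factor of the proteasome genes, was the one that was lower. Its intensities were 11.87 in B16F1-GFP-D and 13.29 in B16F1-GFP-M on array 1, and its ratios were -1.42 and -1.34, with a mean of -1.38 ± 0.05, a 2.60-fold difference. *Ddi2*, the protease known to cleave NFE2L1 into its active form, had -0.66 and -0.70 on its brightest probe. Another detected *Ddi2* probe, which was dimmer, gave -0.32 and -0.27, so that the size of the decrease depended on the probe. The remaining probe was not detected and gave a mean of 0.13. *Mafg*, which encodes a small MAF partner, had -0.73 and -0.64, while *Maff*, another one, had 0.93 and 1.04 and missed the rule on array 1. *Ngly1* (-0.13 and 0.09), *Mafk* (-0.08 and 0.31) and *Nfe2l2* (0.13 and -0.12) were mixed. The transcript of *Nfe2l1*, read from 1 probe, thus lay lower in the line in which most subunit transcripts lay higher. NFE2L1 protein was not measured here.

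Among subunits and factors that the name pattern leaves out, *Uchl5*, a deubiquitinase of the regulatory particle, was the gene past 2-fold upwards. It had 1.07 and 1.30, with a mean of 1.19 ± 0.17, and was read from 1 probe. Its receptor on the particle, *Adrm1*, had -0.35 and -0.28. *Pomp*, the maturation factor of the core, had 0.75 and 0.66. Of the 8 genes of this group that were detected, 5 were higher on both arrays and 2 lower. The shuttle and unfolding factors, which carry substrates to the proteasome, lay the other way, with 7 of 11 lower on both arrays and a median of -0.16. The lowest was *Ubqln1*, with -0.88 and -0.60, whereas *Vcp*, the unfoldase, had 0.16 and 0.34. Of 5 genes for ubiquitin and its activation, *Uba1*, the main activating enzyme, was higher on both arrays (0.44 and 0.60), the other 4 were mixed and none was lower on both.

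**Figure D5:**
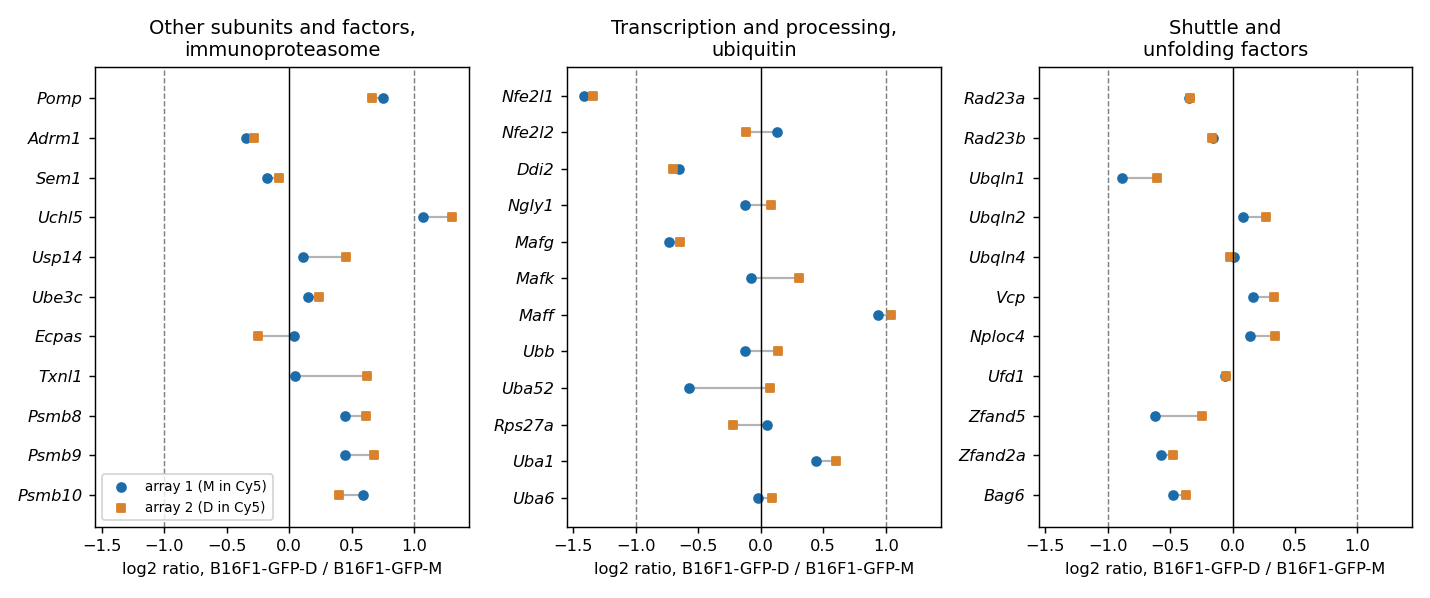
Ratio (horizontal axis, log2 of D divided by M) of the 34 detected pathway genes outside the members on array 1 (circles) and array 2 (squares), with dashed lines at 2-fold. *Nfe2l1* lies below 2-fold and *Uchl5* above it on both arrays.

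The immunoproteasome genes replace the catalytic subunits in interferon-treated and immune cells. All 3 were higher on both arrays. *Psmb10*, which takes the place of *Psmb7*, had 0.59 and 0.40, against 1.77 and 1.22 for *Psmb7*. *Psmb9*, which takes the place of *Psmb6*, had 0.45 and 0.68, and *Psmb8*, which takes the place of *Psmb5*, had 0.45 and 0.62. The probes of *Psmb8* and *Psmb9* were dim and not well above background in B16F1-GFP-M on array 2, and their size depended on the background correction. With the log ratio of the scanner software the means were 2.03 for *Psmb8* and 1.54 for *Psmb9*, in place of 0.53 and 0.56, while *Psmb10* stayed at 0.50.

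To set the members beside the motif that NFE2L1 is known to bind, the promoters of the members were read from the RefSeq table of GRCm38.p6, which gives 250 bases before and 50 after each gene start. It matched 38 members; *Psma8*, *Psmb1*, *Psmb2*, *Psmb7*, *Psmc3*, *Psmd3*, *Psmd7* and *Psmg2* had no entry. The core of the antioxidant response element, TGACNNNGC on either strand, was found in 6 of the 38 genes, or 15.8%, against 12.4% of all 32851 promoters in the table. They were *Psmb5*, *Psmb6*, *Psmc6*, *Psmd12*, *Psmd9* and *Psme4*. The CCAAT box on either strand was found in 14 of the 38, or 36.8%, against 37.4% of all promoters. Both shares were thus close to those of the whole table. The members were counted by gene, with 41 promoter entries for the 38 genes, and the whole table by promoter. The 6 genes with the response element had a median ratio of 0.28, with 5 higher on both arrays, and the 31 detected genes without it had a median of 0.28 as well, with 19 higher on both.

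The last 120 bases before the gene start of *Psmb5* and *Psmb6* are printed, since these catalytic genes share the motif and differed in their ratios, with -0.06 for *Psmb5* and 0.60 for *Psmb6*. Capitals mark the motif, which starts at position -47 relative to the gene start in *Psmb5* and at -9 in *Psmb6*. The stretches are chr14:54617996-54618115 on the minus strand and chr11:70525237-70525356 on the plus strand of GRCm38.p6. A match of letters is a description and no evidence of binding.
Psmb5: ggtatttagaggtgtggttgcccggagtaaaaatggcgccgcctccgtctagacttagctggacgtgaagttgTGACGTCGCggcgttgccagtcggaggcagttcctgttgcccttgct
Psmb6: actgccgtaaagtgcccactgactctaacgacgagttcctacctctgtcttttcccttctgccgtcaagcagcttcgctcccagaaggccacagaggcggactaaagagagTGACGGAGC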

How the data were processed

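Two-colour arrays of B16F1-GFP-D against B16F1-GFP-M were analysed from the scanner files. The deposited spot and background intensities were measured by the authors with Agilent Feature Extraction 10.7.3.1 and carry no normalization. The deposited log10 ratios of Cy5 over Cy3 come from the authors' background-subtracted and dye-normalized signals, and the series value table repeats these log10 values in rounded form, without regard to the dye swap. They served as alternatives. No normalization or threshold for the arrays is given in the sources used here.

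In R 4.3.3 with limma 3.58.1, intensities were corrected by normexp with an offset of 50, which draws ratios of dim spots towards 0, and normalized by loess within each array. Control spots and outlier spots (143 and 176) had no weight, replicate spots were averaged and ratios turned to one direction (B16F1-GFP-D divided by B16F1-GFP-M) on the log2 scale, for 41164 probes. No spot was saturated. Symbols other than the members' were updated through RefSeq accessions (27192 of 28069 probes matched); array positions are mm9. Spots well above background made up 44.1% and 56.1% for B16F1-GFP-D and 60.7% and 45.0% for B16F1-GFP-M on arrays 1 and 2. Precision is limited by having 2 arrays.

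The members, the lists of pathway genes and markers, and the comparisons were chosen with earlier results of these data known. Named were members past 2-fold on both arrays, the highest and lowest of each role class, those opposite in sign to their class or between arrays, and *Psmb5*, *Psmb6* and *Psmb7*; of the pathway genes, those past 2-fold and *Pomp*, *Nfe2l1*, *Psmb8*, *Psmb9* and *Psmb10*. One gene of the pathway list is not reported here. Other genes were named after their values were seen. Alternatives were the software's ratios, the series value table, Aquantile scaling, median centring, an offset of 0, omitted background subtraction, looser and stricter detection, medians over the probes of a gene, single arrays and other thresholds. The 2-fold rule was tried on simulated arrays with changes larger than 2-fold, which does not bear on the smaller shifts and the sign counts. Summaries were made in Python 3.11.15 (pandas 2.3.3, numpy 2.4.6) and plots with matplotlib 3.10.9.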

Additional observations from a re-analysis of the deposited data

How the results depend on the processing

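Main values were a median log2 ratio of 0.35 for the core and 0.29 for the regulatory particle, a difference of 0.07, 1 member past 2-fold and 29 higher on both arrays. The core median was 0.33 with the scanner software's ratio, 0.33 with the series value table, 0.31 with an offset of 0 and 0.33 with the median over all probes of a gene, where the regulatory median was 0.35 and the difference -0.020. With each array left out in turn, the core median was 0.31 to 0.34, the regulatory median 0.23 to 0.31 and the difference 0.03 to 0.08. The count past 2-fold was then 1 to 2 and the count of higher members 29 to 35. Both counts rest on the single array that remains, a looser rule than that on both arrays. Shares of all detected genes are not given for it. *Psma4* was added by leaving out array 1. At 1.5-fold the count was 6. With median centring in place of loess, all detected genes had medians of -0.86 and 1.02 on the arrays; the cause was not tested. It gave medians of 0.57 for the core and 0.54 for the regulatory particle, a difference of 0.025, 0 members past 2-fold on both arrays and 1 higher on both, and *Psmb7* had 0.73 and 2.60. Shares of all detected genes are not given beside these counts. As alternatives chosen after seeing the data, leaving out *Psmb7* gave a core median of 0.33, and the median of a gene's detected probes gave 0.38 for the core, 0.35 for the regulatory particle and 0.026 for the difference. Of the 44 detected members 33 kept 1 sign of the mean under all these settings; the largest value that turned was that of *Psmf1*. *Psmb7* was past 2-fold on both arrays in the ratios of the scanner software, an offset of 0 and no background subtraction. Aquantile scaling leaves ratios within an array as they are and so bears on none of these values. No paired analysis was possible because there is 1 replicate per line; every ratio is already taken between the lines within an array. Slide could not be used as a block, since both arrays are on 1 slide.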
